A study of Mus musculus with 3 samples.

Results

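Across 3 pools of neural retina from Rp1 knockout mice, 91 genes of vesicle trafficking were measured among 8251 genes on the array. They were taken by a rule on symbols that used no values, although it was set with earlier results of these data known. The rule took every gene with 1 clear symbol that begins with Rab and a number, Syt and a number, Stx, Vamp, Napa, Napb, or Ap1, Ap2 or Ap3 and a letter, and added Syn1, Syn2, Syn3, Nsf and Snap23. Snap25 and Syt1 were left out. Of the 5 added symbols Syn2, Nsf and Snap23 had a probe set of their own. The members were 33 Rab GTPases, 6 other genes whose symbols begin with Rab, 11 synaptotagmins, 10 syntaxins, 2 syntaxin-binding proteins, 7 VAMPs, 4 genes of SNARE recycling and the SNAP family, 17 genes of the adaptor complexes and 1 synapsin. The rule also took a few genes that are no trafficking protein by kind, namely the antisense transcripts Rab10os and Rab26os.

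All samples came from Rp1-/- animals on a mixed 129/SvEv and C57BL/6 background, aged 21 postnatal days. Rp1 encodes a microtubule-binding protein of the photoreceptor axoneme. Each of the 3 RNAs pooled the neural retinas of 3 to 4 mice, collected between 1 and 2 pm, and went to 1 Affymetrix array of the U74Av2 design named in the sample titles. The pools form 1 group, and no control or wild-type samples were analysed here, so no test was possible, no effect of the knockout can be read from any value, and the replicate numbers 1 to 3 carry no order. The probe sets with 1 symbol included none for Rp1, and the loss of its transcript was therefore not checked.

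Membrane traffic moves cargo between organelles in vesicles. Coat and adaptor proteins select cargo, Rab GTPases mark each membrane and recruit tethers and motors, and SNARE proteins on vesicle and target membrane zip together to fuse them. NSF with its SNAP cofactors then takes the SNARE bundle apart for another round. Photoreceptors place heavy demands on this machinery. They send newly made rhodopsin from the Golgi to the base of the cilium all day and release glutamate at ribbon synapses.

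Values are signals, the linear intensities of 1 probe set per gene after a small scaling of each array. A signal was above background where it exceeded 160.3, 80.7 and 107.1 in replicates 1, 2 and 3, limits taken from spike-in and yeast control probe sets. The limit in replicate 1 was the highest, so a dim gene can lie below it there at a signal that passes on the other arrays. Signals of different probe sets are not set against each other, because probes differ in response. The range of a gene is its highest minus its lowest log2 signal over the 3 arrays, so that a range of 1 is a 2-fold span. All 7 measured rod markers were above background, and their summed signal was 101810, 149206 and 102230 in replicates 1, 2 and 3, while the rod opsin gene itself was not analysed here. RNA of a whole tissue cannot tell fewer cells of a type from less RNA per cell.

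Most members were detected, and most of those differed little between pools. Of the 91 genes 68 were above background on all 3 arrays, 15 on 1 or 2 arrays and 8 on none. The share above background throughout was 74.7%, where 60.7% of all 8251 genes passed, and 15.7% of all genes passed on no array. Among those 68 genes the median SD was 0.26 on the log2 scale, and over all 5006 genes above background it was 0.36. A range of at least 1 was reached by 13 of the 68, where 28.3% of all such genes reached it. Without replicate 1 the count was 3 of 76 (Rab3a, Rab25 and Rab26os), or 3.95%, where 5.73% of all genes reached it. A gene's range over 2 arrays cannot exceed its range over 3. The spread depended on signal level, as the plot of SD against mean signal shows. In the 33 members with a mean signal of 1000 and over the median SD was 0.23, against 0.32 over the 1495 genes of that level. In the 28 members between 300 and 1000 it was 0.35, against 0.37 over 2742 genes. In the 7 members under 300 it was 0.46, against 0.47 over 769 genes. Between 300 and 1000 a range of at least 1 was reached by 9 members (32.1%; all genes 30.3%). At 1000 and over 3 members reached it (9.09%; all genes 16.6%), and under 300 1 member did (14.3%; all genes 44.1%).

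**Figure D1:**
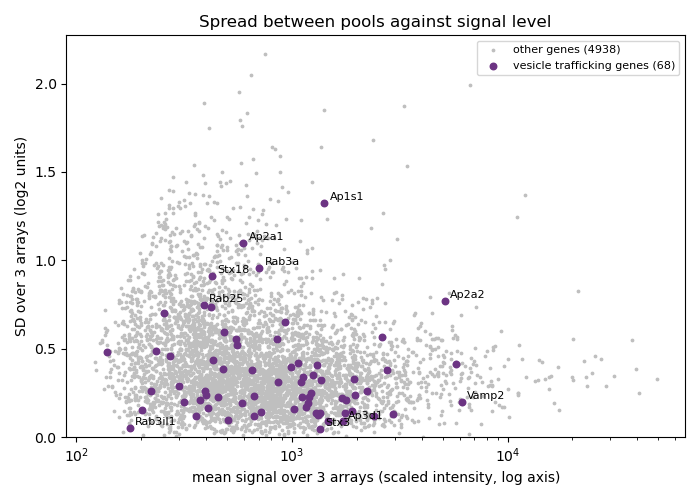
SD over 3 arrays on the log2 scale (vertical axis) against mean scaled signal (horizontal axis, log scale) for the 68 vesicle trafficking genes above background on every array (purple) and the 4938 other such genes (grey). Ap1s1 has the highest SD of the members, at 1.33, and Stx3 the lowest, at 0.047.

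Rab proteins are molecular switches that bind a membrane when loaded with GTP. Of the 33 Rab GTPases 27 were above background on all arrays (81.8%; all genes 60.7%), with ranges from 0.16 for Rab11a to 1.71 for Rab3a. A range of at least 1 was reached by 5 of the 27 (18.5%; all genes 28.3%). Rab3a, the Rab of synaptic vesicles, had signals of 945, 289.7 and 885 in replicates 1, 2 and 3. Replicate 2 lay more than 2-fold below both other pools, which 1 member and 2.58% of all genes did. A further Rab3a probe set stayed below background on every array, so this dip rests on 1 probe set. The secretory Rabs Rab3b and Rab3d were below background in all 3 pools, between 19.3 and 73.9.

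Rabs of the endoplasmic reticulum and the Golgi were above background throughout, all 6 of 6, where 60.7% of all genes were. Rab1a, which takes cargo from the endoplasmic reticulum to the Golgi, gave 1041, 1422 and 1150.4, a mean of 1205 ± 196 (SD, n = 3). Rab6a acts at the Golgi and on the carriers that bring rhodopsin toward the cilium. Its signals were 1631, 2092 and 1619.8, highest in replicate 2, while a further probe set gave 812, 819 and 1649 and was highest in replicate 3. Rab2a, another Rab of early secretion, gave 2383, 1949.5 and 1515 and Rab18, found on the endoplasmic reticulum and lipid droplets, gave 2092, 3529 and 2672. The Golgi Rabs Rab33a and Rab33b differed in spread. Rab33a gave 685, 319.9 and 260.4, highest in replicate 1 with a range of 1.40, and Rab33b gave 414, 360.4 and 453, a range of 0.33, although a second Rab33b probe set gave 1045, 449 and 949.7 with a range of 1.22.

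Endosomal Rabs included the steadiest of the GTPases. Rab11a, the Rab of recycling endosomes, which also serves rhodopsin transport, had signals of 1406, 1575 and 1429, and its paralog Rab11b gave 2089.9, 2177 and 1610.0. A further Rab11a probe set, at 381, 445 and 364, was likewise highest in replicate 2. Rab9, which returns receptors from late endosomes, gave 659.9, 726 and 615, and Rab14, on early endosomes and the Golgi, gave 2726, 3246 and 2854. Rab14 was less steady elsewhere, since its other probe sets gave 332, 219 and 428 and 402, 117 and 238, both lowest in replicate 2. The paralogs of the early endosome did not share a pattern. Rab5a gave 1719.5, 1963 and 1629 with a range of 0.27, whereas Rab5b and Rab5c were highest in replicate 1 at 564, 309 and 412 and 1453, 643 and 688. Rab4a and Rab4b, of fast recycling, also differed in range. Rab4a gave 667, 804 and 696, and Rab4b gave 528, 948 and 1090.3, lowest in replicate 1 with a range of 1.05. Rab7, the late endosome Rab, gave 875, 1450.4 and 879 and was highest in replicate 2 at both of its probe sets, the second with 940.5, 2063 and 1536 and a range of 1.13.

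The other endosomal Rabs above background on all arrays were Rab21, Rab24, Rab31 and Rab34, with ranges from 0.39 to 0.97, and Rab25. Rab25, a Rab of epithelial cells, gave 398, 204 and 565 with a range of 1.47. Rab17, which is also known from epithelia, was 399 in replicate 1 and 52.8 and 105 in the others, below background there, so replicate 1 exceeded replicate 2 by at least 4.95-fold. Such lower bounds divide the brighter signal by the background limit of the dimmer array. Rab20 and Rab35 were below background on all arrays. The melanosome Rabs Rab32 and Rab38 and the Rab27 genes were not analysed here.

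Rabs of polarised transport were above background for 5 of 6 genes, with no range of 1 or more. Rab8a, which works with Rab11 to bring vesicles to the ciliary base, gave 923, 1572 and 1415, lowest in replicate 1. Its paralog Rab8b ran the other way, at 195 in replicate 1 and below background at 42.4 and 88.8 in the others, a drop of at least 2.42-fold from replicate 1 to the dimmest pool. Rab28, whose loss causes cone-rod dystrophy in people, was steady at 1689, 1972 and 2054. Rab12 gave 897, 1111 and 1044 and Rab10 959, 948 and 1388, and a second Rab10 probe set was also highest in replicate 3, at 748, 866 and 1171. Rab23, which acts on Hedgehog signalling in cilia, was dim at 183, 94.0 and 138.

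Genes named after a Rab but encoding a partner were above background on all arrays in 4 of 4 cases (60.7% of all genes). Rab3ip and Rab3il1 encode exchange factors that load Rab8 with GTP. Rab3il1 was among the steadiest members, at 183, 170.5 and 176, and Rab3ip gave 804, 439 and 425, highest in replicate 1. A second Rab3ip probe set, below background in replicate 1 at 138, was highest in replicate 3. Rab11fip5, a Rab11 effector, had a range of 0.35, and Rab5if one of 0.47. The antisense transcript Rab26os gave 309, 324 and 136, lowest in replicate 3, and Rab10os gave 120.4, 541 and 437, below background in replicate 1. Rab26 itself was not analysed here, and Rab10, unlike Rab10os, was above background in every pool and highest in replicate 3.

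**Figure D2:**
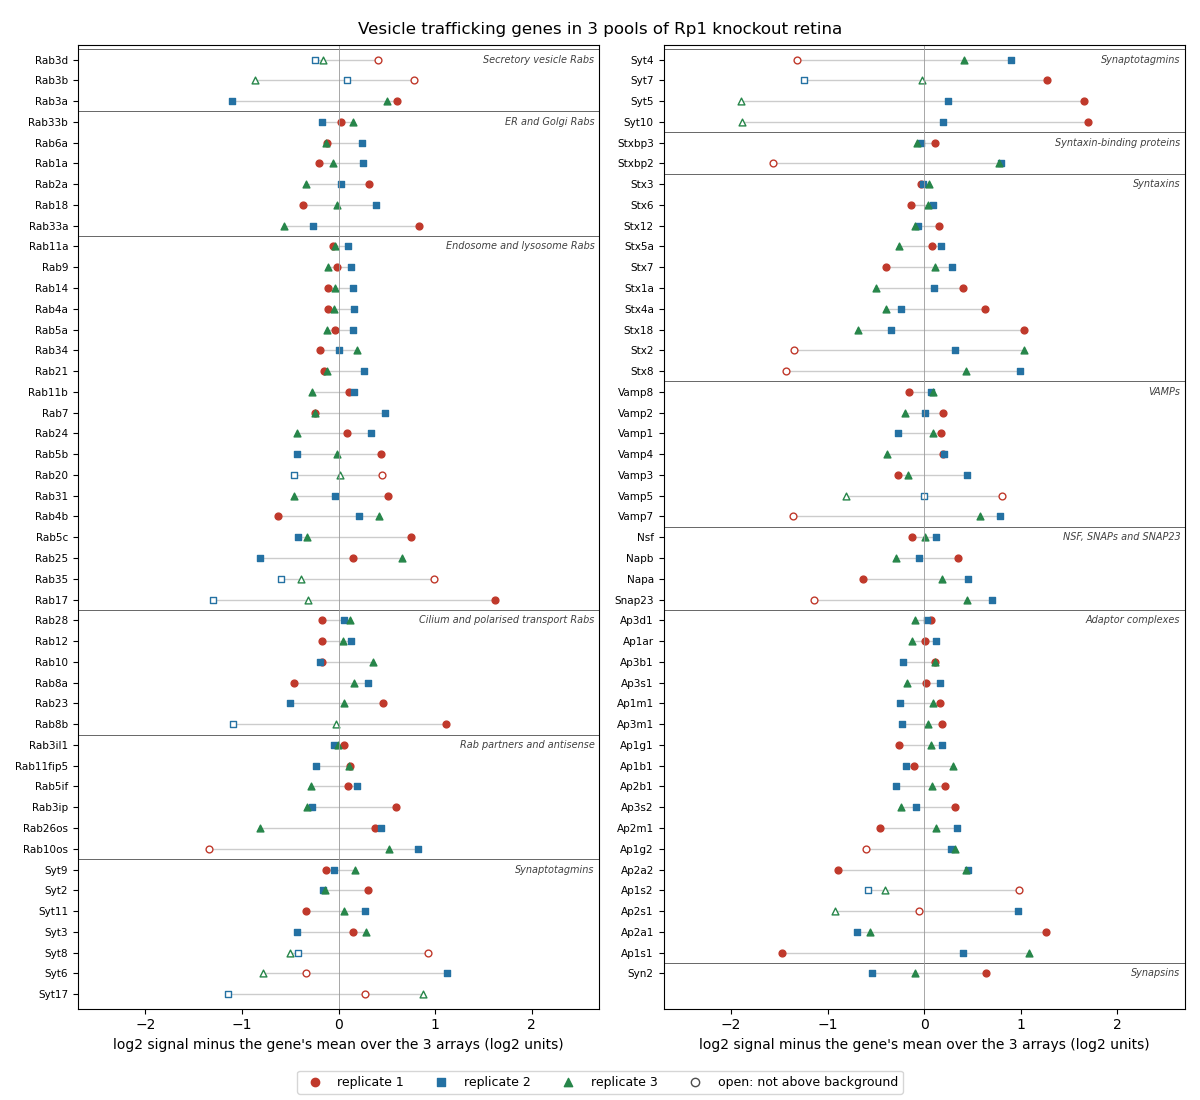
Each row is 1 of the 91 genes, ordered by role and then by range, and each point is the log2 signal of 1 pool minus the mean of the gene's 3 pools (horizontal axis, log2 units; circles, squares and triangles for replicates 1, 2 and 3), with open points where the signal was not above background. Points of most endosomal Rabs and adaptor subunits span less than 1 log2 unit, while those of Syt5, Syt7 and Syt10 are far apart and partly open.

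Synaptotagmins are vesicle proteins, several of which sense calcium. Only 4 of the 11 measured genes (36.4%) were above background in every pool, where 60.7% of all genes were. At the probe sets used, those 4 had no range of 1 or more, where 28.3% of all genes above background on all arrays had one. Syt2, a fast calcium sensor, gave 480.1, 349 and 353, and a second probe set gave 266, 109 and 221, with the same highest and lowest pools and a range of 1.28. Syt3 gave 709.7, 473 and 777 and Syt9 184, 195 and 226. Syt11, which does not bind calcium, gave 676, 1034 and 888, lowest in replicate 1.

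The other 7 synaptotagmins were below background in at least 1 pool. Syt5 gave 708, 268 and 60.7, with replicate 3 below background and at least 6.61-fold under replicate 1. Syt10 gave 241, 85.2 and 20.1, also below background in replicate 3 alone, by at least 2.25-fold under replicate 1. Syt7, a slow high-affinity sensor, passed the limit with 232 in the first pool alone, against 40.7 and 94.5. These 3 genes were all highest in replicate 1. Syt4, which like Syt11 does not bind calcium in the usual way, ran opposite, with 109, 505 and 361 and the first value below background, at least 3.15-fold higher in replicate 2. Syt6 was above background only in replicate 2, at 172, while Syt8 and Syt17 were below it in all pools. Syn2, a synapsin that tethers vesicles in reserve at conventional synapses, gave 709.9, 313 and 426, highest in replicate 1 with a range of 1.18.

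Syntaxins are SNAREs of the target membrane. On all arrays 8 of 10 were above background, where 60.7% of all genes were. Stx3, the plasma membrane syntaxin of ribbon synapses, had the smallest range of all members, 0.090, with signals of 1317, 1338 and 1401. This steadiness held for that probe set alone. The 2 other Stx3 probe sets gave 1295, 1007 and 686 and 1329, 1847 and 1369, highest in replicates 1 and 2 with ranges of 0.92 and 0.47. Stx1a, its counterpart at conventional synapses, gave 346, 283 and 186, lowest in replicate 3. Stx4a, a syntaxin of the plasma membrane in many cells, was highest in replicate 1 at 812, 444 and 399, and Stx2 ran opposite at 159, 505 and 828, with replicate 1 just under its limit. For Stx2 the lower bound of the span was 5.17-fold, from replicate 1 to replicate 3.

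Within the cell the syntaxins of the Golgi and of recycling endosomes were steady. Stx6 of the trans-Golgi gave 327, 384 and 370.0, Stx12 of recycling endosomes gave 1501, 1288 and 1262, and Stx5a, which fuses carriers with the Golgi, gave 1170.2, 1253 and 926. Stx18 of the endoplasmic reticulum was the exception, at 754, 290.0 and 228 with a range of 1.73. The late endosome pair Stx7 and Stx8 had the same order of pools. Stx7 gave 938, 1503 and 1326 and Stx8 gave 48.1, 258 and 175, the latter below background in replicate 1 and at least 1.61-fold higher in replicate 2. Of the syntaxin-binding proteins, Stxbp3 was steady at 547, 493 and 481. Stxbp2 gave 77.6, 399 and 393 at one probe set, below background in replicate 1, and 667, 166 and 364 at the other, where replicate 1 was highest, so its order of pools depended on the probe set.

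VAMPs are the SNAREs of the vesicle. Vamp2, the synaptobrevin of most retinal synapses, had signals of 6979.6, 6104 and 5303, a mean of 6129 ± 839 (SD, n = 3), and a second probe set gave 920.3, 855 and 925. Both probe sets kept the pools within a range of 0.40, and their order of pools was not the same. Vamp1 gave 446, 328 and 421, and Vamp3, of recycling endosomes, gave 388, 634 and 415, highest in replicate 2. Vamp4 of the trans-Golgi gave 1268, 1275 and 847. Vamp8, a late endosome VAMP, had 1158, 1349.5 and 1374 at the probe set used and 932, 513 and 345 at the other. Vamp7, which fuses lysosomes and carriers at the cell surface, was below background in replicate 1 and gave 73.8, 324 and 281, at least 2.02-fold higher in replicate 2. Its second probe set was below background everywhere. Vamp5 was below background in all pools.

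The proteins that recycle SNAREs, Nsf, Napa and Napb, were above background in every pool. Nsf, the ATPase that pulls SNARE bundles apart, gave 2202, 2608 and 2407, a mean of 2406 ± 203 (SD, n = 3). Of its cofactors, Napa (alpha-SNAP) gave 1600.5, 3395 and 2818 with a range of 1.08, lowest in replicate 1. Napb (beta-SNAP, the form of neurons) gave 1703, 1294 and 1092, highest in replicate 1, while a second probe set was steadier at 905, 839.6 and 978. Snap23, the widespread relative of the neuronal SNARE Snap25, was below background in replicate 1, with 44.8, 160.2 and 134.

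Promoters of 4 of these genes are printed as the bases just before the start used for each RefSeq promoter window (GRCm38.p6), read 5′ to 3′ on the strand of the gene. They are the syntaxin that was steadiest at the probe set used (Stx3), the endosomal syntaxin that was below background in replicate 1 (Stx8), and the partners Nsf and Napa, which differed in range. Capitals mark the letters CACGTG (E-box), TAATCC (the core bound by the photoreceptor factor Crx), TGACGTCA (CRE) and GGGCGG (GC box), searched on both strands.
Stx3, chr19:11819404-11819653 (- strand): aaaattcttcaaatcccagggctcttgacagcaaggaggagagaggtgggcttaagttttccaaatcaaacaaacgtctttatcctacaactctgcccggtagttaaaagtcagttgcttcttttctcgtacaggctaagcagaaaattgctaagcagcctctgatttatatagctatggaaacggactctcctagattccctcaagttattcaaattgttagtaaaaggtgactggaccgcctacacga
Stx8, chr11:67966208-67966457 (+ strand): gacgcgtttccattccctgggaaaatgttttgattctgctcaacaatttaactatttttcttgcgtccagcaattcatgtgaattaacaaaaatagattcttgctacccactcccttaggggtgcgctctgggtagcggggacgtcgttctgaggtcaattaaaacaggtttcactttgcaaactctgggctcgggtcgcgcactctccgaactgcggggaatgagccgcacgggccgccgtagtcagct
Nsf, chr11:103954057-103954306 (- strand): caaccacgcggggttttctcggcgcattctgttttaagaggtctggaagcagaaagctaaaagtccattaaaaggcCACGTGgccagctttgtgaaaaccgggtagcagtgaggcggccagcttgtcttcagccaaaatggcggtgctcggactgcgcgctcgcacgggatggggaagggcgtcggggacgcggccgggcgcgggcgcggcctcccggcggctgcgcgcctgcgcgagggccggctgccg
Napa, chr7:16098330-16098579 (+ strand): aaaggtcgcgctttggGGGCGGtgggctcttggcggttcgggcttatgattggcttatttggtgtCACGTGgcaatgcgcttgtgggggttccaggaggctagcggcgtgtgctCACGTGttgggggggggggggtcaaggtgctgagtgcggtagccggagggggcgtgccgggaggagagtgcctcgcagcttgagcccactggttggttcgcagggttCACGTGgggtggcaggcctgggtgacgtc

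In these windows of 250 bases Napa held 3 E-boxes and 1 GC box, Nsf held 1 E-box, and Stx3 and Stx8 held none of the 4 motifs. Windows were found for 79 of the 91 members. Of the 97 windows of members, 48 ended at the base just before the annotated gene start, and the rest did not. An E-box stood in 14 of the 79 (17.7%), in 9.94% of the 6572 genes of the array with a window, and in 6.02% of all 32851 windows. The other genes with an E-box were Ap1s2, Ap2m1, Rab10os, Rab20, Rab21, Rab23, Rab3il1, Rab5a, Stx6, Stxbp2, Syt6 and Vamp4, of which Rab3il1 and Rab5a held 2 in a window. The Crx core stood in 1 member, Rab3ip (1.27%, against 6.25% of array genes), the CRE in 4 (5.06% against 2.69%) and the GC box in 53 (67.1% against 58.9%). Overlaps between motifs were not removed, and a match describes letters, not binding.

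Adaptor complexes link cargo to the clathrin coat, AP-1 at the trans-Golgi, AP-2 at the plasma membrane and AP-3 on the way to lysosome-like organelles. All 5 measured AP-3 subunits were above background on all arrays (60.7% of all genes), with ranges of 0.17 to 0.56. The large subunits gave 1803, 1746 and 1601 for Ap3d1 and 1274, 1008 and 1269.8 for Ap3b1. The medium and small subunits Ap3m1, Ap3s1 and Ap3s2 gave means of 373 ± 53.3, 1168 ± 138 and 301 ± 62.2 (SD, n = 3). None of these 5 subunits had a range of at least 1, where 28.3% of all genes above background did. Each of the 5 was measured by 1 probe set only.

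AP-2 subunits did not share an order of pools. Ap2a1, the alpha subunit common in neurons, gave 1156, 296 and 325, highest in replicate 1 with a range of 1.96. Its paralog Ap2a2 gave 2535, 6431 and 6346, lowest in replicate 1, but a second probe set gave 1530.5, 1713 and 1301 with a range of 0.40. The medium subunit Ap2m1 was also lowest in replicate 1 at 4063, 7092 and 6101, and its second probe set was highest there at 412, 212 and 216. Ap2b1 gave 254, 179 and 231. The small subunit Ap2s1 was above background only in replicate 2, at 107.

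Among AP-1 subunits, Ap1s1 had the widest range of all members above background on every array, 2.56. This small subunit gave 400.5, 1468 and 2361, a span of 5.90-fold with replicate 1 lowest. The large and medium subunits were steady over the same pools, with 2048, 1927 and 2699 for Ap1b1, 556, 757 and 699 for Ap1g1 and 1898, 1425 and 1806 for Ap1m1. A second probe set of Ap1b1 gave 172, 132 and 318 and that of Ap1m1 791, 382 and 391, each with the same highest and lowest pools as the first but wider ranges of 1.27 and 1.05, while the 2 Ap1g1 probe sets above background did not share them. Ap1g2 was below background in replicate 1, Ap1s2 was below it everywhere, and Ap1ar, a regulator of AP-1, gave 1335, 1437 and 1209.

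Of all 91 members, 9 had a measured signal at least 2-fold lower in replicate 1 than in both other pools while above background in those. They were Ap1s1, Ap2a2, Rab10os, Snap23, Stx2, Stx8, Stxbp2, Syt4 and Vamp7, or 9.89% of members, where 7.27% of all genes did the same. A further 9 had a measured signal at least 2-fold higher in replicate 1 and above background there. They were Ap2a1, Rab5c, Rab8b, Rab17, Rab33a, Stx18, Syt5, Syt7 and Syt10, again 9.89%, where 11% of all genes did so. Many of the dim signals lie below background, where only a bound holds. With each such signal raised to the limit of its array, 6 low genes (6.59%; 3.76% of all genes) and 8 high genes (8.79%; 9.80% of all genes) kept a 2-fold difference. Snap23, Stx8 and Vamp7 no longer did so among the low genes, nor Rab8b among the high genes. Giving all arrays the same median, which shifts replicates 1, 2 and 3 by -0.22, 0.23 and 0.024 on the log2 scale, kept the 9 low genes by measured signal and added Ap1g2, Napa and Rab4b (11.5% of all genes). Quantile normalization, with nearly the same shifts, kept 8 of the 9, lost Ap2a2 and added Ap1g2 (10.2% of all genes). Of the 9 high genes 4 remained so with a common median (Ap2a1, Rab17, Syt7 and Syt10), where 7.54% of all genes were high. Under quantile normalization 6 did (Ap2a1, Rab5c, Rab17, Stx18, Syt5 and Syt7), where 8.62% of all genes were high.

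**Figure D3:**
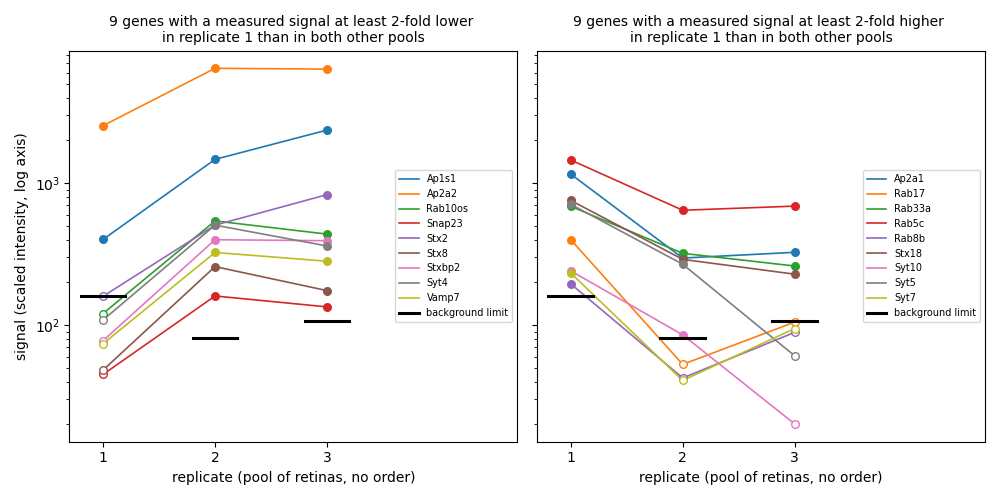
Scaled signal (vertical axis, log scale) in each pool (horizontal axis, joined by lines only to link a gene's values) for the 9 genes measured at least 2-fold lower, and the 9 measured at least 2-fold higher, in replicate 1. Black bars are the background limits of 160.3, 80.7 and 107.1, and open points lie below them. Of the low genes 7 have an open point in replicate 1, and Ap1s1 and Ap2a2 do not.

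The other pools seldom stood apart. By measured signal Rab3a was low in replicate 2 alone and Ap2s1 and Syt6 were high there (1.2% of all genes were high). In replicate 3 alone Rab26os, Syt5 and Syt10 were low (1.48% of all genes) and no member was high (1.98% of all genes). Against the background limits the differences of Rab3a, Rab26os and Syt5 remained at least 2-fold, and those of Ap2s1, Syt6 and Syt10 did not. Between replicates 2 and 3 the median absolute difference of the 68 members was 0.27 on the log2 scale, against 0.38 between 1 and 2 and 0.35 between 1 and 3. Over all 5006 genes these medians were 0.33, 0.50 and 0.46. Of the 68 members 25 were lowest in replicate 1, 19 in replicate 2 and 24 in replicate 3, where 36% of all genes, 32.4% and 31.6% were. Replicate 2 held the highest signal of 29 members (42.6%), where it did so for 33% of all genes. Replicate 1 was highest for 27 members and replicate 3 for 12, against 42.6% and 24.4% of all genes. These shares move with the scaling of the arrays.

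Sums of markers of other cell types differed between the same pools, by more for some types than for others. For pigment cells 2 of 5 measured markers were above background on all arrays, and all 5 markers summed to 1422, 12026 and 7835 over the pools in order. Fibroblast and smooth muscle markers, also 2 of 4, summed to 828, 1900 and 2394, and red blood cell markers, 2 of 4, to 5490, 31716 and 8254. The ganglion cell markers, 4 of 4, summed to 6033, 4615 and 4066. Replicate 1 had the lowest sum for the first 3 lists and the highest for the last, but single markers did not all follow the sum. In replicate 1 the defining pigment marker Tyrp1 was below background at 63.2 and Dct was at 765, and Dcn and Acta2 of the fibroblast and smooth muscle list were below background at 23.1 and 55.5. The other markers of that list, Col1a1 at 556, 409 and 769 and Lum at 193, 166 and 244, were lowest in replicate 2. Of the red blood cell markers above background throughout, Hba-a1 was lowest in replicate 1 and Hbb-b2 in replicate 3. Lens markers, 4 of 4, summed to 102996, 164473 and 121015, Muller glia, 4 of 4, to 10815, 17445 and 14250, and bipolar cells, 3 of 4, to 1402, 2784 and 2853. Of the 4 Muller glia markers 3 were lowest in replicate 1, but Glul was highest there, at 3557, 2390 and 1378. Amacrine and horizontal cell markers, 4 of 4, summed to 11045, 14686.5 and 12452, and microglial markers, 2 of 4, to 1230, 1031 and 1288. Platelet markers, 0 of 2, summed to 265, 112 and 277. The part of these cells in the differences between pools was not tested.

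Several members carry more than 1 probe set, which gave a check within the same RNAs. Of 27 such genes 18 had at least 2 probe sets above background on all arrays. The probe sets put the highest signal in the same pool for 9 of the 18 (Ap1b1, Ap1m1, Ap2a2, Rab10, Rab11a, Rab31, Rab7, Syt2 and Vamp4) and the lowest in the same pool for 5 (Ap1b1, Ap1m1, Rab33b, Rab7 and Syt2). Both held for Ap1b1, Ap1m1, Rab7 and Syt2. For the 9 low genes a further probe set existed for Ap2a2, Stxbp2 and Vamp7. Those of Ap2a2 and Stxbp2 did not repeat the low signal of replicate 1, and that of Vamp7 was below background on all arrays and gave no check. None of the 9 high genes had one. Probe sets with a letter before the suffix can take signal from related genes or were built under relaxed rules, and 15 of the probe sets not used were of this kind. So were the probe sets used for Vamp1 and Vamp8.

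**Figure D4:**
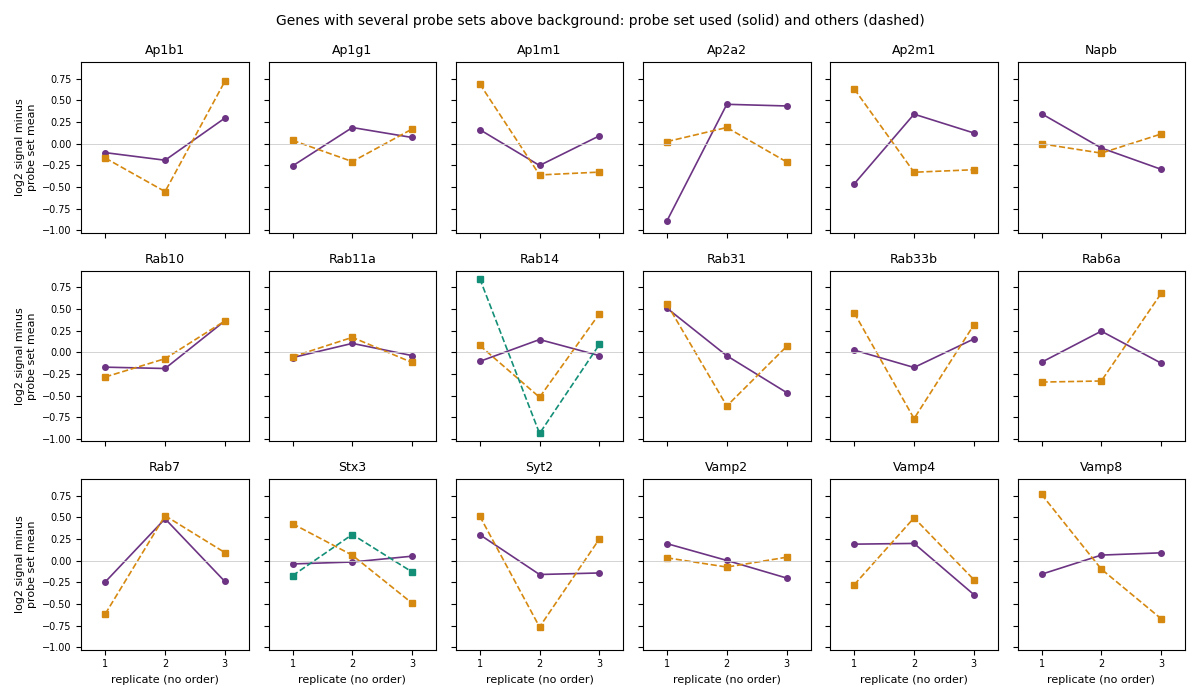
Log2 signal minus the probe set's mean (vertical axis, log2 units) in replicates 1 to 3 for the 18 genes with at least 2 probe sets above background on every array, with the probe set used as a solid line and others dashed. The lines of Rab7 and Syt2 have their highest and lowest points in the same pools, while those of Ap2m1, Rab14 and Vamp8 cross.

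Other genes of the pathway were followed through a list of 90 names, of which 60 had a probe set of their own. Of all genes 60.7% were above background on all arrays, and of these 60 names 55 were. Their median SD was 0.34 (all genes 0.36), and 14 of the 55 had a range of at least 1, where 28.3% of all genes did. In the Rab cycle 5 of 5 measured genes were detected, with Gdi2, which extracts Rabs from membranes, at 2246, 3378 and 3355 and Rabac1, which helps to return them, at 3679.5, 6994 and 5772. Snap25, the SNARE partner of Stx3 and Vamp2, gave 11358, 12929 and 9159. The calcium sensor Syt1 gave 3056, 6302 and 5445, lowest in replicate 1 as Syt4 and Syt11 were. Of the other SNAREs 6 of 8 were detected. Vti1b, which pairs with Stx7, Stx8 and Vamp8, gave 1011, 1388 and 781, lowest in replicate 3, so it did not share the order of pools of Stx7 and Stx8. Clathrin heavy chain (Cltc) gave 4601, 8037 and 6346 and the light chain Cltb gave 324, 839 and 865, both lowest in replicate 1. Dynamin 1 (Dnm1) was highest there at 7486, 6294 and 5994. Of the 7 clathrin and dynamin genes above background on all arrays, 2 were lowest in replicate 1 and 4 were highest there. Of all genes 36% were lowest and 42.6% highest in replicate 1.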

How the data were processed

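The authors deposited 1 linear intensity per probe set and array, per the labels from 3 Affymetrix arrays. Software, background correction and scaling target are not given in the sources used here. The table held 12488 probe sets with no missing value, of which 66 were controls and 10833 carried 1 symbol in the platform annotation. One probe set was kept per gene, a plain suffix first, then the highest mean. All 91 member symbols stood in the RefSeq gene table of GRCm38.p6, used for names.

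From the deposited intensities, each array was scaled to a common mean after trimming 2% at each end (factors 0.998, 1.00 and 1.00). Before log2, lower signals were raised to each array's 5th percentile. The background limit was the 95th percentile of 19 control probe sets. Alternatives covered the scaling, the limit, the floor, the probe set and leaving out each array. With 1 group no test was made, and members are described beside all genes. The number of arrays limits the precision.

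Genes named were those with a range of at least 1, the 3 narrowest of each role, textbook genes of photoreceptor and vesicle biology, those whose probe sets differ in order, and those not above background. Others are named after their values were seen. The members and lists were chosen with earlier results of these data known. Computations were tested on simulated data and run in Python 3.11.15, numpy 2.4.6, pandas 2.3.3 and matplotlib 3.10.9.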

Additional observations from a re-analysis of the deposited data

How the results depend on the processing

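Scaling to a common median moved the median log2 signal of all probe sets by -0.22, 0.23 and 0.024 in replicates 1, 2 and 3, and quantile normalization by nearly the same amounts. With a common median 41 members (60.3%; all genes 54.2%) were lowest in replicate 1 in place of 25 (36.8%; all genes 36%), and the median deviation from the other 2 pools was -0.25 in replicate 1 (all genes -0.28) in place of 0.095, and 0.39 in replicate 2 (all genes 0.32) in place of 0.061. Averaging a gene's probe sets gave a deviation in replicate 2 of -0.053. The count of members with a range of at least 1 was 28 (32.6%; all genes 42.9%) when the limit was the controls' median and 33 (36.3%; all genes 49.8%) with no filter on background, where more dim genes are counted. Without replicate 1 the count was 3 of 76 (3.95%, all genes 5.73%). Without replicate 2 it was 9 of 68 (13.2%, all genes 17.84%), and without replicate 3 it was 11 of 70 (15.7%, all genes 21.96%). A gene's range over 2 arrays cannot exceed its range over 3, so lower counts do not single out the members. Leaving out a pool gave deviations in replicate 1 of -0.015 (without replicate 3) to 0.064 (without replicate 2). The other 83 summary values over these alternatives kept their direction and stayed within 1.5 times the main count or median SD, or within the median SD of the members. For single members 891 mean signals moved by less than 1 SD and 19 by more, and 731 ranges moved by less than the gene's SD and 179 by more. The check of the 9 low and 9 high genes under other scalings and against the background limits was chosen after seeing the data. No paired analysis was possible because the 3 samples form 1 group. Dim members are limited by the background of replicate 1, and every value by 3 arrays.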

Other observations

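The coat genes in the list of other pathway genes hold coat proteins and small GTPases of the Arf and Sar1 families. All 17 measured names were above background on all arrays, where 60.7% of all genes were. Of the 17, 13 were lowest in replicate 1, where 36% of all genes were under the same scaling. With a common median 54.2% of all genes were lowest there, and the coat genes were not counted under that scaling. A range of at least 1 was reached by 7 of the 17, where 28.3% of all genes reached it. Of these 7 genes 4 are subunits of coatomer, the coat that returns cargo from the Golgi to the endoplasmic reticulum. Copa gave 1083, 3381 and 3592, Copb2 1103, 2342 and 3166, Cope 939.6, 1993 and 1797 and Copz1 895, 1841 and 1558, each lowest in replicate 1. Copg1 and Arcn1, subunits of the same coat, gave 1125, 1535 and 1174 and 932, 870.5 and 694, so that Arcn1 was highest in replicate 1. Sec23a, of the outward COPII coat, gave 958, 1945 and 1415, and the small GTPase Arf1, which recruits coatomer, gave 7004, 11078 and 9022. Arf3 and Arf6 were highest in replicate 1. Exoc4 of the exocyst, a tether, was below background in replicate 1, at 128, 276 and 453. The endosomal ATPase Vps4a was steady at 1309.8, 1337 and 1290.0.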
